A study of Mus musculus with 10 samples.

Results

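The cytosolic ribosomal protein genes encode the proteins of the large (60S) and small (40S) subunits of the ribosome that translates nuclear mRNAs. They were taken by symbol: Rpl or Rps followed by a number, with the paralog forms (such as Rpl22l1) and the stalk genes Rplp0 and Rplp2 included, and with pseudogenes of the -ps kind, the Rps6k kinases and the Rps19bp genes left out. Each gene was read from 1 probe set, the brightest over all 10 arrays among those that the platform annotation assigned to a single symbol. This gave 48 of the 18193 genes measured, 26 of the large and 22 of the small subunit. RefSeq annotates 47 of them as protein coding and Rps4l as a transcribed pseudogene. A further 29 symbols of the same kind, Rpl3, Rpl5, Rpl10 and Rplp1 among them, were found only on probe sets with several symbols and are not named with values, and Rps27a was not analysed here.

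The arrays came from 10 tumors of the mouse melanoma line B16 in C57BL/6 mice, 5 wild type and 5 Bach2-deficient. BACH2 is a transcriptional repressor of lymphocytes that restrains effector differentiation, and the study compared tumors grown with and without it. Each tumor was dissected whole and broken mechanically into a cell suspension, so its RNA mixed melanoma cells with stroma, vessels and leukocytes. The labels name no age, sex or batch and leave unstated the kind of Bach2 lesion, whether host or tumor cells carried it, and whether each tumor had its own animal. Values are log2 expression, and every change is Bach2-deficient minus wild type on that scale. The words rose and fell are kept for an adjusted p under 0.05 in limma, a linear model with variance moderated across genes, with Benjamini-Hochberg adjustment over all 18193 genes.

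Ribosomal proteins are needed in near equal numbers, because each ribosome holds nearly all of them in a single copy, and their mRNAs are among the most abundant of a growing cell. Many of these mRNAs begin with a C followed by a run of C and T bases, the 5′ terminal oligopyrimidine tract, through which the kinase mTOR and the RNA-binding protein LARP1 set how strongly they are translated. Unassembled ribosomal proteins are degraded, and a few, such as Rpl11, also bind MDM2 and stabilise p53 when ribosome assembly fails.

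RefSeq promoter entries on assembly GRCm38.p6 were found for 42 of the 48 genes, and none for Rps4l or Rpl8. The 30 bases printed run from 20 before the annotated start to the first 10 transcribed bases, and show how the tract looks in genes that fell and in genes that did not. The tract searched for was a C followed by at least 4 bases that are each C or T, and capitals mark the longest match in each window; a shorter match, as in Rps18, stays in lower case. Rpl14 lies at chr9:120571497-120571526 on the plus strand, Rps6 at chr4:86857358-86857387 on the minus strand, Rps18 at chr17:33955656-33955685 on the minus strand, Rpl22l1 at chr3:28805488-28805517 on the plus strand, and Rps19 at chr7:24884572-24884601 on the plus strand. Rpl7a at chr2:26910787-26910816 on the plus strand and Rplp2 at chr7:141447631-141447660 on the plus strand were not called.
Rpl14: cggcagggcgggCCCTCTCTCTTCTCgctg
Rps6: gggttaagcggaagtcgggCCTCTTTTTCg
Rps18: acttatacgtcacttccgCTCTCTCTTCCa
Rpl22l1: cgtgcgtgcggcgcaagcccgttCTCTTCC
Rps19: agcactccgaaatctcgcgagactcgacgc
Rpl7a: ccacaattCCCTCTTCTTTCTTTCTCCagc
Rplp2: cccactgcgtcagcgtCTTCCTTTCgccgc

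The tract was present in 32 of the 50 annotated starts of these genes (64%), against 37.6% of the 32851 promoters in the table. On the opposite strand of the same windows it was present in 24% of the genes' starts and 40% of all. A tract that opened exactly at the annotated start base occurred in 8 of the 50 starts (16%) and in 2.51% of all promoters. Counted by gene, 7 of the 9 fallen genes with an entry held a tract (77.8%), and so did 24 of the 33 genes that were not called (72.7%). A match describes the letters of the window and not a tract in use, and annotated starts can be off by several bases.

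Several quantities of the arrays themselves differed between the groups. The poly-A spike controls, RNAs added before labelling, averaged 12.1 ± 0.184 (SD, n = 5) on the wild-type arrays and 10.04 ± 0.106 on the Bach2-deficient ones, with no overlap, and the hybridization controls fell by 0.64, also with no overlap. Both had an exact 2-sided permutation p of 0.00794, the smallest 5 against 5 arrays allow, and 0.0278 after Benjamini-Hochberg adjustment over 7 technical quantities. The 18S ribosomal RNA probe set for the middle of the molecule averaged 13.4 in both groups (exact permutation p = 0.738), while those for its 3′ and 5′ ends changed by -0.49 (exact permutation p = 0.0238, adjusted 0.0556) and -0.30 (exact permutation p = 0.222, adjusted 0.311). The log2 difference between the 3′ and 5′ actin controls, a sign of RNA integrity, was 1.002 in wild type and 0.745 in Bach2-deficient tumors (exact permutation p = 0.0556, adjusted 0.0972), and that of Gapdh was 0.591 in both. The female-specific transcript Xist read 11.4 to 12.2 in wild type and 11.9 on Bach2-deficient replicate 2, but was low on the other 4 Bach2-deficient arrays (4.76 to 6.61), so tumors differed in sex-linked expression along with genotype. Bach2 itself averaged 6.96 in wild type and 5.89 in Bach2-deficient tumors, a change of -1.07 that missed the threshold (limma adjusted p = 0.0551).

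Most cytosolic ribosomal protein genes were slightly lower in the Bach2-deficient tumors, and few passed the test. Of 48 genes, 10 fell, 1 rose and 37 were not called. The fallen genes made up 20.8% of the list, against 12.4% of all genes. The share that rose was 2.08%, against 16.3% of all genes, and 28.7% of all genes were called in either direction. The median change of the 48 genes was -0.14 (all genes: -0.06), and 42 of them (87.5%) lay below 0, against 56.8% of all genes. In 16 genes every Bach2-deficient array lay below every wild-type array (33.3% of the list; background 7.67%), and in 1 gene every one lay above (background 11.2%).

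The size of the list's shift depended on the scaling. When each array's median over all genes was subtracted, the median of all genes moved from -0.06 to -0.22 and that of the ribosomal protein genes to -0.30, and 32 of them fell and 1 rose. In that scaling 12.6% of all genes rose and 26.5% fell, against the 32 of 48 ribosomal protein genes that fell. Subtracting a median shifts all genes of an array by the same amount, so the medians of the list and of all genes had to move alike. The calls were lost once a covariate was added: with a 2-level Xist term, with the mean of the melanocyte markers, or with the mean of the hybridization controls in the limma fit, 0 ribosomal protein genes fell. Over all genes those fits called 2.13%, 0.484% and 0.885% as lower. At an unadjusted p under 0.05 they held 6, 1 and 0 ribosomal protein genes that were lower, against 20 without a covariate. The median change of the list was -0.17 with Xist (41 genes below 0) and -0.13 with the melanocyte mean (43 below 0), close to the -0.14 without a covariate. With the hybridization controls it was -0.055 (34 below 0). All 3 covariates lay close to genotype. The Xist term departed from it only on Bach2-deficient replicate 2. The melanocyte mean overlapped between the groups only through Bach2-deficient replicate 1, and the hybridization controls did not overlap. Such covariates widen the error of the genotype change, so calls can be lost whatever the cause, and covariate and genotype cannot be told apart. What part sex-linked expression, tumor-cell share or labelling had in the falls was not tested.

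Rpl14, a large subunit protein, had the largest called fall. It read 10.61, 10.24, 10.42, 10.06 and 9.67 on wild-type arrays 1 to 5 and 9.77, 9.31, 9.21, 9.52 and 9.60 on the Bach2-deficient ones. The 2 groups overlapped only through wild-type replicate 5, which lay below Bach2-deficient replicate 1. The mean went from 10.2 to 9.48, a change of -0.72 (SE 0.18; limma adjusted p = 0.0139), or 1.65-fold lower.

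Rpl8, which sits next to the peptidyl transferase centre, read 13.29, 13.20, 13.29, 13.09 and 13.13 in wild type and 13, 12.60, 12.76, 12.69 and 12.53 in Bach2-deficient tumors. All Bach2-deficient arrays were below all wild-type arrays. It changed by -0.48 (SE 0.10; limma adjusted p = 0.0072), which is 1.40-fold lower.

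Rps19, needed to mature the small subunit and the gene most often mutated in Diamond-Blackfan anaemia, had the smallest adjusted p among the falls. Its wild-type values were 13.521, 13.494, 13.553, 13.376 and 13.394, and its Bach2-deficient values 13.213, 12.953, 12.974, 13.003 and 12.878. The groups did not overlap, and Bach2-deficient replicate 1 was again the nearest to wild type. The change was -0.46 (SE 0.09; limma adjusted p = 0.00407).

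Among the falls, Rpl14, Rpl8 and Rps19 were called most often: each in 18 of 21 alternative analyses, all but the 3 covariate fits. Each had only 1 single-symbol probe set, so the alternatives that change the probe set gave them the same change by construction. With the Xist term their changes were -0.89, -0.60 and -0.51, with limma adjusted p of 0.116, 0.0811 and 0.0855. With the melanocyte mean they were -0.61, -0.34 and -0.39 (limma adjusted p = 0.290, 0.279 and 0.184), and with the hybridization control mean -0.27, -0.23 and -0.26 (limma adjusted p = 0.709, 0.549 and 0.408).

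**Figure D1:**
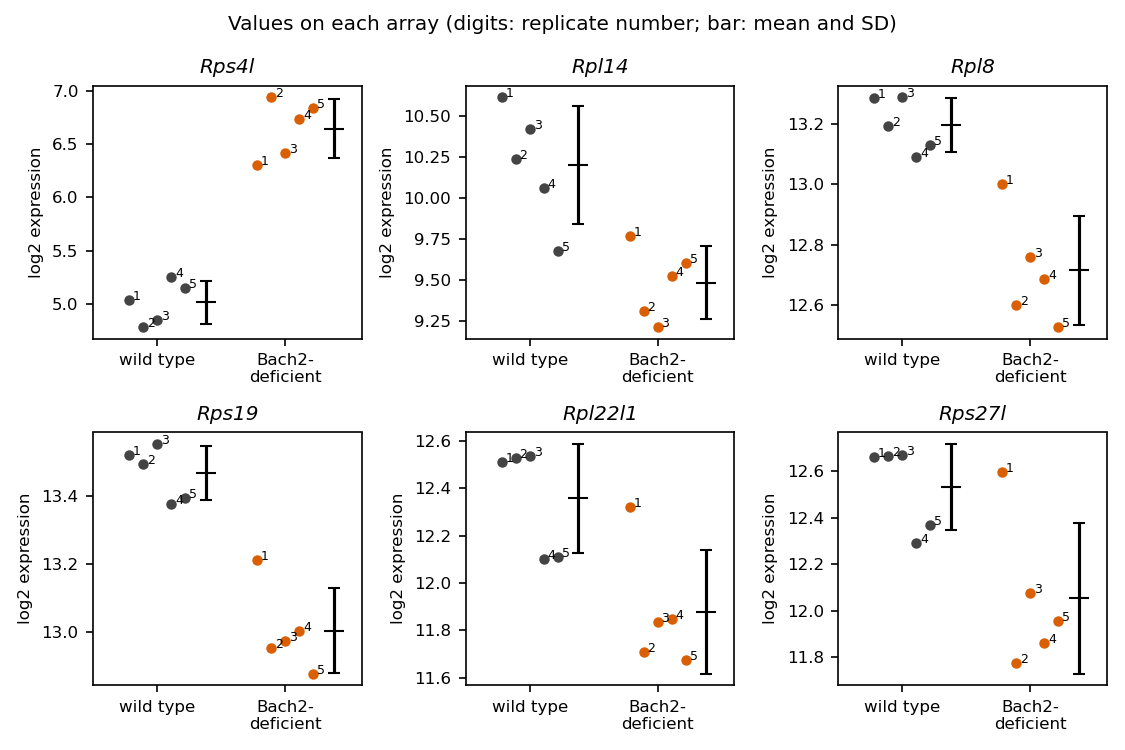
Log2 expression of 6 ribosomal protein genes on each array, with replicate numbers beside the points and bars for the group mean and SD (n = 5); the vertical scale differs between panels and does not start at 0. Rps4l is higher on every Bach2-deficient array, and in the other 5 genes Bach2-deficient replicate 1 lies closest to the wild-type arrays.

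The other large subunit falls were Rpl22l1, Rpl37 and Rpl37a. Rpl37a, a zinc-binding protein, went from 13.36 to 13.04 (-0.32, SE 0.09; limma adjusted p = 0.0214) with no overlap and was called in 16 of 21 alternatives. Rpl37, also zinc-binding, was read by a dim probe set whose mean was 5.68. The _x_at names of the probe sets for both genes mark probes that can match other transcripts. It read 5.71 to 6.23 in wild type and 5.23 to 5.64 in Bach2-deficient tumors, a change of -0.40 (limma adjusted p = 0.0346), and signal from such transcripts cannot be told apart from that of either gene.

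Among the small subunit genes Rps6, Rps18 and Rps7 fell by modest amounts. Rps6, the substrate of the S6 kinases downstream of mTOR, ranged from 10.76 to 11.10 in wild type and from 10.40 to 10.74 in Bach2-deficient tumors. The gap between the groups was narrow, and the change of -0.31 stood at the edge of the threshold (SE 0.11; limma adjusted p = 0.0495). Rps18, at the head of the small subunit, varied little in wild type (13.59 to 13.65) and lay at 13.28 to 13.49 in Bach2-deficient tumors, with a change of -0.27 (limma adjusted p = 0.0230). Rps7, which can also bind MDM2, went from 13.5 to 13.2 (-0.27; limma adjusted p = 0.0358). With the mean over its probe sets Rps18 changed by -0.13 (limma adjusted p = 0.502), and with its plain _at probe set by -0.01 (0.991). That probe set was much dimmer (mean 6.75, SE of its change 0.37), and the mean also took in probe sets at 3.36 and 3.01. Its other bright probe sets, with means of 13.3 and 13.4, changed by -0.31 and -0.24. In the fit over all single-symbol probe sets their limma adjusted p was 0.0260 and 0.0570. The call for Rps18 was thus lost where dimmer probe sets were used. Rps6 was called in 7, Rps7 in 10 and Rps18 in 11 of the 21 alternatives.

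Values on either side of the threshold differed little. Rps25, a small subunit protein needed by several viral internal ribosome entry sites, changed by -0.55 with a limma adjusted p of 0.0502. Its wild-type arrays spread from 11.15 to 11.90, and Bach2-deficient replicate 1 (11.59) lay inside that range while the other 4 lay between 10.89 and 11.03. Rps26, which lines the mRNA exit channel, changed by -0.28 (limma adjusted p = 0.0526) and Rps2 by -0.21 (limma adjusted p = 0.0527). Rpl12, at the base of the stalk, had the second largest negative change of the list (-0.60) and a wide spread, 8.12 to 9.10 against 7.46 to 8.82, and was not called (limma adjusted p = 0.114). These 4 genes were chosen after their values were seen.

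Rps4l was the only gene of the list that rose, and it did so clearly. It is a relative of Rps4x that RefSeq classes as a transcribed pseudogene. It read 5.03, 4.78, 4.85, 5.26 and 5.15 in wild type and 6.30, 6.94, 6.42, 6.74 and 6.84 in Bach2-deficient tumors. The lowest Bach2-deficient array was more than 1 log2 unit above the highest wild-type array. The mean went from 5.01 to 6.65, a change of 1.63 (95% interval 1.30 to 1.96; limma adjusted p = 0.00016), or 3.10-fold higher. It was called in all 21 alternatives, with changes from 1.16 to 1.92 and adjusted p of at most 0.0493, the covariate fits included. Rps4l had only 1 single-symbol probe set, so the alternatives that change the probe set repeated its change and could not differ. Its wild-type mean of 5.01 was just above 4.98, the bound of the dimmest 30% of genes. Its mean was above that of only 40.2% of genes, and no other background correction was tried.

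Of the 48 genes, 6 are paralogs that carry an l in their symbol, and for 5 of them the partner gene was also measured. The difference between paralog and partner was taken on each array, so that a log2 shift of equal size in both cancelled. Its change between the groups was tested by exact 2-sided permutation with adjustment over the 5 pairs. Effects that differ with brightness do not cancel, and in wild type Rps4l averaged 8.35 below Rps4x and Rps27l 5.64 above Rps27. Rps4x, the X-linked partner of Rps4l, read 13.34 to 13.39 in wild type and 13.25 to 13.32 in Bach2-deficient tumors. It changed by -0.09 and was not called. Rps4l against Rps4x moved by 1.72 (exact permutation p = 0.00794, adjusted 0.0397), with all arrays apart, which mostly repeats the rise of Rps4l itself.

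Rpl22l1 and Rps27l both fell while their partners were not called. Rpl22l1, whose mRNA is known to be held down by RPL22, read 12.51, 12.53, 12.54, 12.10 and 12.11 in wild type and 12.32, 11.71, 11.84, 11.85 and 11.67 in Bach2-deficient tumors (-0.48, SE 0.15; limma adjusted p = 0.0388). Bach2-deficient replicate 1 lay above 2 of the wild-type arrays and the other 4 lay below all of them. Rpl22 changed by -0.17 (limma adjusted p = 0.124), and the pair difference by -0.30 (exact permutation p = 0.0397, adjusted 0.0794).

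Rps27l, a p53-inducible paralog of Rps27, read 12.66, 12.67, 12.67, 12.29 and 12.37 in wild type and 12.60, 11.77, 12.08, 11.86 and 11.96 in Bach2-deficient tumors (-0.48, SE 0.16; limma adjusted p = 0.0485). As in Rpl22l1, the overlap came from Bach2-deficient replicate 1. Rps27 changed by 0.08 with a spread of 6.35 to 7.04 in wild type, and the pair difference by -0.56 (exact permutation p = 0.0476, adjusted 0.0794). Neither difference passed after adjustment, so unequal change was not shown for these pairs.

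Rpl7l1, a relative of Rpl7, read 10.33, 10.32, 10.43, 10.58 and 10.65 in wild type and 10.21, 10.29, 10.10, 10.42 and 10.07 in Bach2-deficient tumors. Its change of -0.25 was close to the -0.21 of Rpl7, and the pair difference was -0.03 (exact permutation p = 0.762). Neither gene was called.

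The remaining paralogs were dim. Rpl39l, a form best known from the testis, jumped between 3.80 and 5.37 in wild type and between 3.84 and 5.65 in Bach2-deficient tumors, on individual arrays 5.16, 3.80, 5.37, 3.94 and 4.65 against 5.14, 5.38, 3.84, 3.98 and 5.65. Its high and low arrays occurred in both groups, and the pair difference with Rpl39 was 0.35 (exact permutation p = 0.444). Rpl3l, the form of striated muscle, read 3.38, 3.58, 3.94, 3.89 and 4.02 against 3.57, 4.17, 3.81, 4.01 and 4.07, and its partner was not among the genes measured. Both were among the dimmest 30% of genes, whose means did not exceed 4.98, as was Rps16 at 3.04, and no statement of presence can be made at that level. Without the 6 paralogs, 8 of 42 genes fell (19%, against 12.4% of all genes) and 0 rose.

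Several members with well known particular roles were not called. Rplp0 and Rplp2, the stalk proteins that recruit the translation GTPases, changed by -0.11 (limma adjusted p = 0.355; 95% interval -0.29 to 0.08) and 0.02 (limma adjusted p = 0.814). Rpl11, the 5S particle protein that binds MDM2, read 13.71 to 13.72 on the wild-type arrays and 13.50 to 13.60 on the Bach2-deficient ones, a change of -0.17 (limma adjusted p = 0.0929). Rps3, also a DNA repair enzyme, changed by -0.16 (limma adjusted p = 0.121), and Rpl38, linked to Hox mRNA translation, by -0.10 (limma adjusted p = 0.334). Rpl13a, a subunit of the interferon-induced GAIT complex, changed by -0.13 (limma adjusted p = 0.215). Its less bright probe sets changed by more, -0.28, -0.41 and -0.55. None of these was called in a fit over all single-symbol probe sets (limma adjusted p = 0.0859, 0.0974 and 0.0658). The genes nearest to 0 were Rpl6 at -0.01 and Rpl4 at 0.05. A call missed does not show equal levels, but the 95% interval lay between -0.5 and 0.5 in 35 of the 48 genes.

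Most of these genes sat at the top of the array's scale. Of the 48, 34 were at or above the 99th percentile of gene means and 31 had a mean of 13 or more. The highest value of any probe set on an array averaged 14.41 in wild type and 14.35 in Bach2-deficient tumors. Its ranges, 14.387 to 14.438 and 14.311 to 14.386, did not overlap. The 31 brightest genes had a median change of -0.13, with 4 fallen (12.9%, against 12.4% of all genes) and 0 risen (all genes: 16.3%). In 13 of them (41.9%, against 7.67% of all genes) every Bach2-deficient array lay below every wild-type array. The 5 genes with means of 12 to 13 had a median of -0.48 with 3 fallen, and the 5 with means of 8 to 12 a median of -0.55 with 2 fallen. The 7 genes under 8 held the single rise and 1 fall, with a median of 0.08. Among genes with means of 8 or more, the median change was thus nearest to 0 in the brightest, and whether brightness limited their size was not tested.

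Replicates of the bright genes differed very little. The median SD over the 48 genes was 0.0646 in wild type and 0.0986 in Bach2-deficient tumors, and the lowest, 0.00539, belonged to Rpl11 in wild type. The limma fit replaces such a small spread with one drawn toward that of all genes, which set a standard error of about 0.07 for them. In 9 genes the groups did not overlap and no call was made: Rps2, Rpl10a, Rps15, Rpl11, Rps3, Rpl27, Rps3a1, Rps4x and Rps9. With a moderation that follows intensity and resists outlying variances, 21 genes fell instead of 10 (all genes: 12.8%), Rpl11 among them with an adjusted p of 0.00297 in limma.

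**Figure D2:**
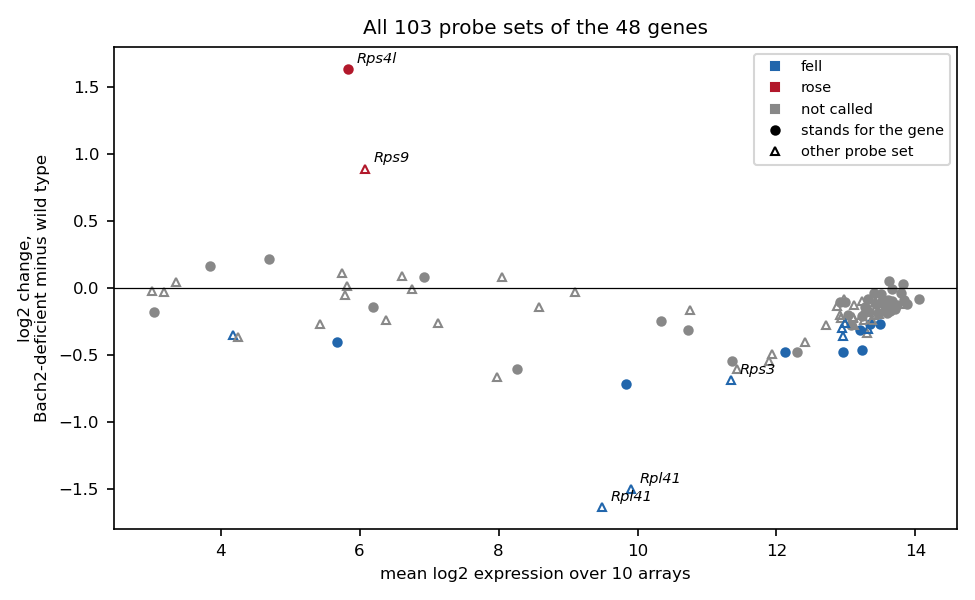
Log2 change against mean log2 expression for all 103 single-symbol probe sets of the 48 genes; filled circles stand for their gene, open triangles are the other probe sets, and colour marks the call over all single-symbol probe sets. The bright cluster above 13 lies just below 0, while the largest changes belong to dimmer probe sets of Rps4l, Rps9 and Rpl41.

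Probe sets of the same gene did not always move by the same amount. In a fit over all 34945 single-symbol probe sets, 16 of the 103 probe sets of these genes fell and 2 rose, against 10.1% and 14.1% of all. Of the 55 that did not stand for their gene, 8 fell and 1 rose. Rps6 and Rps27l, which fell in the fit by gene, missed the threshold here with limma adjusted p of 0.0597 and 0.0560. Of the 23 genes with several probe sets, 5 had probe sets whose changes differed in sign.

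Rpl41, the smallest protein of the large subunit, showed the widest disagreement. Its brightest probe set changed by -0.08 and was not called, at 14.07 to 14.11 in wild type and 13.94 to 14.08 in Bach2-deficient tumors. Probe set 1433530_at, in contrast, read 10.21, 10.69, 10.53, 9.63 and 10.48 in wild type and 9.08, 8.63, 8.22, 8.70 and 8.72 in Bach2-deficient tumors. The groups did not overlap there, and the change was -1.64 (SE 0.22; limma adjusted p = 0.000798). Probe set 1454639_x_at moved alike, by -1.50 (limma adjusted p = 0.000942). The first of these stayed called with the Xist term (limma adjusted p = 0.0439) but not with the melanocyte mean (0.0698) or the hybridization controls (0.176). Where in the transcript each probe set lies was not analysed here.

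Rps3 and Rps9 differed between probe sets as well. Probe set 1455600_at of Rps3 read 11.55 to 11.82 in wild type and 10.72 to 11.41 in Bach2-deficient tumors, a change of -0.69 (limma adjusted p = 0.00427), where the gene's brightest probe set changed by -0.16. Probe set 1426958_at of Rps9, a small subunit protein near the mRNA entry channel, was dim and rose from 5.35 to 5.80 in wild type to 6.34 to 6.94 in Bach2-deficient tumors, by 0.89 (limma adjusted p = 0.00225). The brightest probe set of Rps9 changed by -0.04 (95% interval -0.19 to 0.11), so the call for this gene turned on the probe set chosen. These probe sets were singled out after their values were seen.

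A further 110 probe sets carried several symbols with at least 1 ribosomal protein gene among them, usually beside pseudogene copies. In a fit over all 45037 non-control probe sets, 20 of them fell and 1 rose, against 8.87% and 11.9% of all probe sets. Their median change was -0.17, and that of all probe sets was -0.07. Since their signal may come from several loci, no gene is named from them.

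Both subunits had small negative medians. The 26 large subunit genes had a median change of -0.14 with 5 fallen and 0 risen in limma (10 and 0 at an unadjusted p under 0.05). The 22 small subunit genes had a median of -0.15 with 5 fallen and 1 risen. The fallen made up 19.2% and 22.7%, against 12.4% of all genes. In 6 large subunit genes (23.1%) and 10 small subunit genes (45.5%) every Bach2-deficient array lay below every wild-type array, against 7.67% of all genes. No test of a difference between the subunits was made.

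**Figure D3:**
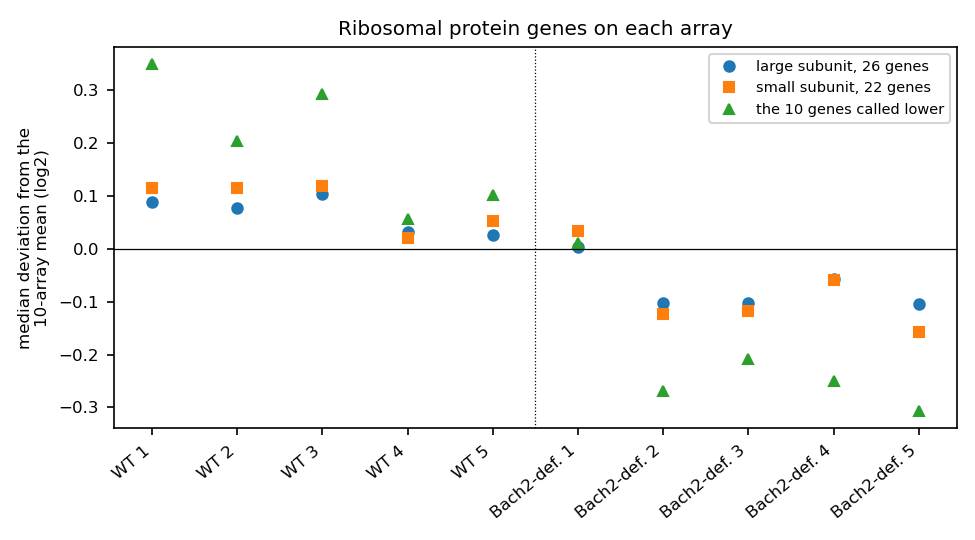
Median deviation from the 10-array mean (log2) on each array, for the 26 large subunit genes, the 22 small subunit genes and the 10 genes called lower, which were picked for that difference. The medians of both subunits are above 0 on the 5 wild-type arrays and below 0 on Bach2-deficient replicates 2 to 5, and Bach2-deficient replicate 1 lies near the level of wild-type replicates 4 and 5.

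On individual arrays the median deviation of the 48 genes from their mean was 0.0969, 0.0871, 0.108, 0.0258 and 0.0394 in wild type. In Bach2-deficient tumors it was 0.0108, -0.110, -0.103, -0.0586 and -0.144. Wild-type replicates 4 and 5 and Bach2-deficient replicate 1 lay close together between the extremes. Bach2-deficient replicate 5 was the lowest array for 20 of the genes and replicate 3 for 13, and wild-type replicate 3 was the highest for 15. Without Bach2-deficient replicate 1, 15 genes fell. Without any other of the Bach2-deficient arrays only 3 or 4 did: 3 without replicate 2 or 5, and 4 without replicate 3 or 4. Leaving out wild-type replicate 1 left 5 falls, and leaving out replicate 2 or 3 left 6. The share of all genes that fell moved the same way, from 12.4% with all arrays to 15.4% without Bach2-deficient replicate 1. It was 7.63% to 9.31% without any other Bach2-deficient array. Without wild-type replicates 1, 2 and 3 in turn it was 9.23%, 11% and 10.9%.

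Bach2-deficient replicate 1 was also the nearest of its group to wild type in T cell and melanocyte markers, at the end of a graded spread. T cell markers averaged 8.87 on that array and 9.36 to 10.2 on the other 4, against 6.03 to 7.07 in wild type. Melanocyte markers averaged 11.4 on it and 10.6 to 11.03 on the other 4, against 11.3 to 11.6 in wild type.

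The marker lists of some other cells moved strongly with genotype, and those of others little. Of all genes, 16.3% rose and 12.4% fell. All 17 T cell markers measured rose, with a median of 2.75 (Cd3e 2.12, Cd8a 4.23), and 14 of 20 macrophage and monocyte markers rose. Of 20 melanocyte markers 7 fell and 0 rose, with a median of -0.34 (Tyr -0.68, Dct -0.33), and the B16 identity genes Dct, Mlana and Mitf stayed bright in both groups (13.1 to 13.5). Fibroblast and matrix markers fell in 6 and rose in 1 of 14, endothelial markers fell in 4 and rose in 2 of 13, and red cell markers fell in 3 of 5. B and plasma cell markers rose in 2 of 11, muscle markers rose in 2 and fell in 2 of 14, adipocyte markers rose in 1 and fell in 1 of 5, and 0 of 9 keratinocyte markers were called in limma (1 lower at an unadjusted p under 0.05). In RNA from whole tumors, fewer cells of a type and less RNA per cell cannot be told apart, and the part of these shifts in the ribosomal protein values was not tested.

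The naming rule leaves out some proteins of the ribosome. Rpsa, the laminin receptor protein of the small subunit, changed by -0.10 (limma adjusted p = 0.335), and Fau, which encodes the small subunit protein eS30 fused to a ubiquitin-like domain, by -0.11 (limma adjusted p = 0.296). Both averaged above 13.4 in each group. Among 9 ribosome-associated genes measured, which also include factors that are no part of the ribosome, 1 fell and 0 rose, with a median of -0.10. That was 11.1% fallen, against 12.4% of all genes. The fallen gene was Pabpc1, the poly(A)-binding protein, which went from 12.9 to 12.5 (-0.45; limma adjusted p = 0.0116). With the mean over its probe sets Pabpc1 changed by -0.32 (limma adjusted p = 0.0916) and with its plain _at probe set by -0.18 (0.652).

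Mitochondrial ribosomal proteins, which serve the separate ribosome inside mitochondria, were lower in many cases. Of 76 measured, 28 fell (36.8%, against 12.4% of all genes) and 2 rose (2.63%, against 16.3%), with a median change of -0.30 and 65 below 0. With array medians subtracted 46 fell, a scaling in which 26.5% of all genes fell. Mrpl12, of the mitochondrial large subunit, went from 11.3 to 10.02 (-1.30, SE 0.19; limma adjusted p = 0.00102) and Mrps35, of its small subunit, from 10.4 to 9.50 (-0.95, SE 0.18; limma adjusted p = 0.00385). The mean of the list was 10.03 to 10.26 on the wild-type arrays and 9.71 to 9.78 on Bach2-deficient replicates 2 to 5, while replicate 1 (10.2) lay inside the wild-type range. The difference between the cytosolic and the mitochondrial list was not tested. With the melanocyte mean or the hybridization controls in the fit, 0 mitochondrial ribosomal protein genes fell, and with the Xist term 4 did.

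Ribosome assembly factors went in both directions. Of 70 measured, 14 fell (20%, against 12.4% of all genes) and 4 rose (5.71%, against 16.3%), and the median change was 0.00. Of the H/ACA and C/D particles that modify rRNA, Nhp2 (-0.92, SE 0.17; limma adjusted p = 0.00284), Dkc1 (-0.86), Nop56 (-0.999) and Nop58 (-0.58) fell. Gar1 (-0.19; limma adjusted p = 0.315) and Nop10 (-0.23; 0.159) of the first and Fbl (0.24; 0.0648) of the second were not called, and Fbl was higher on every Bach2-deficient array. With its plain _at probe set Dkc1 changed by -0.27 (limma adjusted p = 0.139) and Fbl by 0.36 (0.0283). Wdr12, of the PeBoW complex that matures the large subunit rRNA, fell by 0.69 (SE 0.14; limma adjusted p = 0.00447). The risen genes were Riok1 (0.56), Heatr1 (0.85), Sbds (0.41) and Rpf1 (0.38). The count of rises was 2 with array medians subtracted and 1 after repeated quantile normalization. Riok1 and Rpf1 were not called with the mean over their probe sets, Sbds and Rpf1 were not called with array medians subtracted, and Rpf1 changed by -0.04 with its plain _at probe set (limma adjusted p = 0.923).

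Of 15 genes of RNA polymerase I, which transcribes the precursor of the large rRNAs, 3 rose and 1 fell, with a median of -0.17. These were 20% and 6.67% of the list, against 16.3% and 12.4% of all genes. Znrd1, a subunit of the polymerase, rose by 0.98 (SE 0.19; limma adjusted p = 0.00451) and Ttf1, its termination factor, by 0.81 (limma adjusted p = 0.00519). Ubtf, which opens ribosomal DNA for transcription, rose by 0.67, while the shared subunit gene Polr1c fell by 0.47. With the mean over probe sets Ttf1 changed by 0.39 (limma adjusted p = 0.0448) and Ubtf by 0.33 (0.186).

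Initiation and elongation factors gave few calls, in numbers that depended on the processing. Of 40 initiation genes 3 rose and 0 fell in limma (5 higher and 7 lower at an unadjusted p under 0.05), with a median of -0.05. The rises were 7.5% of the list, where 16.3% of all genes rose and 12.4% fell. Eif2ak2, which encodes the interferon-induced kinase PKR, rose by 1.30 (SE 0.21; limma adjusted p = 0.00176), and Eif2ak3, which encodes the kinase PERK, by 0.74 (limma adjusted p = 0.00212). Both kinases phosphorylate eIF2, which inhibits initiation. The third was the cap-binding protein gene Eif4e3 (0.82). With the mean over probe sets Eif2ak3 changed by 0.15 (limma adjusted p = 0.254) and Eif4e3 by 0.38 (0.210), and 1 initiation gene rose and 4 fell. With array medians subtracted 3 rose and 14 fell, and after repeated quantile normalization 3 rose and 7 fell. Of 9 elongation genes 3 fell (33.3%, against 12.4% of all genes) and 0 rose, with a median of -0.20. The fallen genes included Eef2k, the kinase that inhibits eEF2 (-0.41, limma adjusted p = 0.00586). The others were the tissue-restricted factor gene Eef1a2 (-0.44, limma adjusted p = 0.0131) and Eif5a2 (-0.63, limma adjusted p = 0.0358). Eef2k changed by -0.13 (limma adjusted p = 0.620) with the mean over its probe sets and by -0.21 (0.451) with a plain _at probe set, and Eif5a2 by -0.37 (0.209) with the mean. With array medians subtracted 7 elongation genes fell, a scaling in which 26.5% of all genes fell.

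Regulators of ribosome production and its surveillance rose in 5 of 8 cases (62.5%, against 16.3% of all genes) and fell in 0, with a median of 0.47. The count of rises was 2 with array medians subtracted, 3 with the mean over probe sets and 0 in each of the 3 covariate fits. Mtor rose by 0.59 (SE 0.11; limma adjusted p = 0.00388), though its change was -0.01 when the mean over its probe sets was used. Larp1, the binder of terminal oligopyrimidine tracts, rose by 0.43, and Rps6kb2, an S6 kinase that phosphorylates the Rps6 protein, by 0.71 (limma adjusted p = 0.0213). Mdm2, the ligase that targets p53, rose by 0.37 but changed by -0.09 with the mean over its probe sets and by -0.40 with a plain _at probe set (limma adjusted p = 0.684 and 0.370), and Cdkn1a, the cell cycle inhibitor induced by p53, rose by 0.69. With array medians subtracted neither Larp1 (0.27; limma adjusted p = 0.103) nor Cdkn1a (0.53; 0.0672) was called. Myc, a driver of ribosomal protein transcription, changed by -0.04 (SE 0.29; limma adjusted p = 0.930) with a wide spread in both groups. Myc level and ribosomal protein levels were not compared across arrays.

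**Figure D4:**
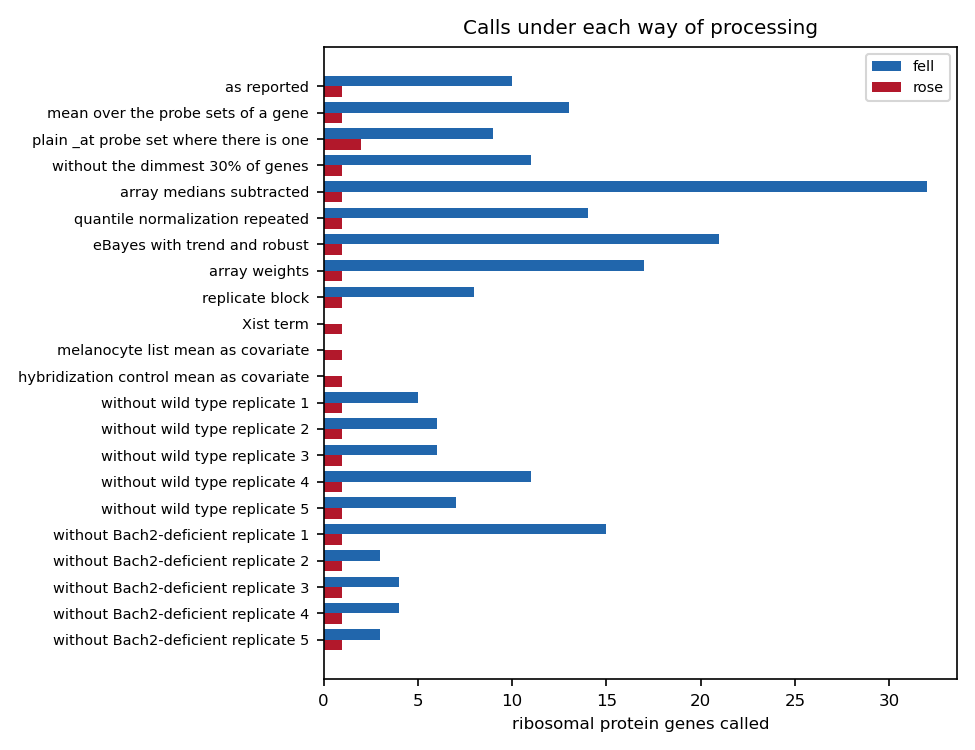
Number of the 48 genes that fell (blue) or rose (red) as reported and under 21 other ways of processing (45 genes where the dimmest 30% were dropped); bars start at 0. The single rise, Rps4l, was called throughout, joined by Rps9 where plain _at probe sets were preferred, while the falls ran from 0 with a covariate to 32 with array medians subtracted.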

How the data were processed

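RNA of 10 tumors was measured with Affymetrix Mouse430_2 arrays. The log2 values were deposited by the authors; per the submitters' processing notes they used RMA, which corrects background, normalizes quantiles and summarises probes, and Partek (versions not given in the sources used here). They were used as deposited. Of 45101 probe sets, 64 were controls, 34945 had 1 gene symbol and 932 several, in GEO's platform annotation; 34741 of the single-symbol ones had a gene ID in the RefSeq table. The highest-mean single-symbol probe set stood for each of 18193 genes. Groups and replicate numbers came from the sample titles. The comparison used lmFit and eBayes of limma 3.58.1 (R 4.3.3), with genotype as the sole term and Benjamini-Hochberg adjustment, and the script was tested on simulated data. Pair differences and technical quantities were tested by exact permutation. The number of arrays limits the precision, and p-values measure only the spread between these samples, which may be technical.

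The members, gene lists and pairs were chosen with earlier results of these data known. Named were the called members (at most 12 each way), paralogs with partners, stalk genes and members with a well known separate role; Bach2, Xist, Eif2s3y, Rpsa, Fau and Myc; and 2 called genes per related list with the smallest adjusted p. Other genes named were chosen after their values were seen. Same-numbered arrays were checked for pairing: their deviations correlated at 0.00619 to 0.323, and the numbers were not taken to pair the samples.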

Additional observations from a re-analysis of the deposited data

Results flagged for a closer look

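Of 160 combinations of a named gene and a group of 5 arrays, 15 held an array whose gap to its nearest neighbour exceeded 0.71 of the group's whole range (Dixon's criterion at 95%, which flags some groups by chance alone at 5% a test).

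Bach2-deficient replicate 1 was the high array in 8 of them. Rpl22l1 read 12.32 there against 11.67 to 11.85 on the other 4 Bach2-deficient arrays, Rpl22 13.4 against 13.16 to 13.2, and Rps25 11.59 against 10.89 to 11.03. Nop56 read 11.87 against 10.82 to 11.05, and Nop58 10.45 against 9.706 to 9.858. Nhp2 read 10.01 against 9.077 to 9.306, Wdr12 10.1 against 9.485 to 9.587, and Mrpl12 10.74 against 9.698 to 9.971.

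Wild-type replicate 2 was low for Rps27 (6.353 against 6.994 to 7.045) and high for Rps6kb2 (6.655 against 5.62 to 5.752). Bach2-deficient replicate 2 was high for Xist (11.86 against 4.761 to 6.614) and low for the Y-linked Eif2s3y (4.504 against 10.52 to 10.93). Bach2-deficient replicate 4 was high for Rps16 (3.258 against 2.82 to 2.897), at a level in the dimmest 30% of genes. Wild-type replicate 5 was low for Riok1 (7.612 against 8.014 to 8.128), and wild-type replicate 3 for the melanocyte gene Tyr (11.79 against 12.27 to 12.33).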

How the results depend on the processing

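In this list, brackets give the share of all genes that fell. The fall of 10 genes (12.4%) became 13 with the mean over probe sets (12.2%) and 9 with plain _at probe sets (11.3%). It became 11 without dim genes (16.4%) and 14 after repeated quantile normalization (14.8%). It became 32 with array medians subtracted (26.5%), 21 with trend and robust moderation (12.8%) and 17 under array weights (17.7%). It became 0 with the Xist term (2.13%), the melanocyte mean (0.484%) or the hybridization controls (0.885%), all close to genotype. Leaving out 1 array gave 3 to 15 (7.63% to 15.4%). The rise of 1 gene became 2 with plain _at probe sets and 0 without the l-suffixed paralogs, and stayed at 1 in each fit without 1 array. The related lists' 64 calls became 109, 7, 0 and 1 with array medians, Xist, melanocyte mean and hybridization controls, and 38 to 86 without 1 array. With the replicate block, 8 genes fell (7 of them among the 10), against 11.6% of all genes, and 60 related genes were called. Over 5 same-numbered pairs the smallest exact p is 0.0625, so the count of paralog pairs called had to be 0 and says nothing about them. Rps4l still rose by 1.63 (adjusted p = 0.000715, limma). Only numbers 1 and 3 matched best with their own number. Signs turned for Rpl22l1, Dkc1 and Larp1 with the hybridization controls (0.04232, 0.01054 and -0.09961), Tyr with the melanocyte mean (0.02345), Mtor and Mdm2 with the mean over probe sets (-0.006007 and -0.09309), Xist and Eif2s3y with the Xist term (0.0702 and -1.528) and Rps9, Rpf1 and Mdm2 with plain _at probe sets (0.8879, -0.03895 and -0.3999). The causes were not tested. Brightness near the top of the scale and the dim probe sets of Rps16, Rpl3l and Rpl39l limit what can be read of their changes.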
